A study of Homo sapiens with 2 samples.

Results

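Histone messages caught by poly-A capture were counted cell by cell in Nalm-6, a cell line grown from a human acute lymphoblastic leukemia of B-cell precursors. The members are 76 of the 32738 genes counted. Every row whose symbol starts with HIST1H, HIST2H or HIST3H is one (70 genes). These 70 are called replication-dependent here by symbol alone, which takes in the testis linker histone HIST1H1T. The others are the 6 variant genes H1FX, H2AFX, H2AFZ, H2AFV, H3F3A and H3F3B. Both groups were Nalm-6 cells carrying a Tet-On construct and given 500 ng/ml doxycycline for 24 h, with dead cells depleted on beads. The construct was the ETV6-RUNX1 fusion (TEL-AML1 in the source label) in the ETV6-RUNX1 group and luciferase in the LUC control group. Each group was 1 library, so every difference between groups below is a difference between those libraries, with no test and no replicate check. The sources used here do not say whether a line was 1 clone or a pool, and the cells keep the line's own genes beside the construct.

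Nucleosomes are built from the core histones H2A, H2B, H3 and H4, and linker histone H1 binds the DNA between them. Replication-dependent histone genes lie in clusters and are transcribed in S phase, when new DNA is packed. Their messages classically end in a stem-loop with no poly-A tail, which the stem-loop binding protein SLBP recognises and which is lost at the end of S phase. Variant (replacement) histone genes lie apart from the clusters, and as a rule are made through the cycle and have ordinary poly-A tails. An oligo-dT method reads such tailed messages like others. H2AFX is a partial exception among the variants here, as its annotated transcript also holds the stem-loop. Counts made by 3′ capture show neither the end of a message nor where on it the primer sat, so they do not say that a counted histone RNA carried a poly-A tail.

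The ETV6-RUNX1 library held 43941536 UMIs (unique molecular identifiers, each standing for 1 captured molecule) in 2267 kept cells, and the control library 42762188 UMIs in 1870 kept cells, with means of 19383 and 22868 UMIs per cell. ETV6 was at 10.1 CPM (UMIs scaled to 1000000 UMIs of the kept cells) with the fusion and 6.95 in the control, a log2 ratio of 0.55 (95% counting interval 0.33 to 0.76), and RUNX1 was at 33.8 and 34.0. A 3′ tag finds a transgene only if its message ends as the gene does, which the labels do not give, so the level of RUNX1 does not check them. The libraries shared 16 cell barcodes, 7 of them kept in both. Of 9 listed B-cell precursor markers 8 were found; they summed to 3123 and 4155 CPM, and 1 of them, IGLL1, was lower with the fusion by more than 1.5-fold (1126 and 1861 CPM). Markers of other types summed to 4.71 and 6.27 CPM for T and NK cells, 1.71 and 2.01 for myeloid cells and 0.296 and 0.327 for fibroblasts, and were at 0 for red cells and megakaryocytes. CD3D, CD3E, S100A8, S100A9 and DCN had no UMI.

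Annotated messages of the members differed in their ends, and the ends are shown first because an oligo-dT primer pairs with runs of A. All 76 members matched a GENCODE release 29 transcript, 41 by identifier and 35 by symbol. HIST2H2AA3 and HIST2H2AA4 matched the same transcript, which is counted below for each of them. The stem-loop was searched for on the message strand as GG, any 2 bases, CTTTT, any base, AG, any 2 bases and CC. It stood in 30 of 70 replication-dependent members and in H2AFX, and in 72 of 83129 coding transcripts of all genes (0.0866%). Of the 40 replication-dependent members without it, 34 are annotated by their coding sequence alone, so their ends are not in the annotation. In 21 replication-dependent members an annotated transcript ran on for at least 100 bases past the stem-loop. Shown are the stem-loop of HIST1H2BC, the one replication-dependent gene at 10 CPM or more that has it, and that of H2AFX, the variant that has it, with the stem-loop in capitals and 5 flanking bases on each side:
HIST1H2BC: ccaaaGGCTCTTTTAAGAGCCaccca
H2AFX: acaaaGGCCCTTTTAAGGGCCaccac

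The annotated HIST1H2BC transcript went on for 116 bases past the stem-loop, and the H2AFX transcript for 1044. HIST1H4C, which held most of the replication-dependent UMIs, had no stem-loop in its annotated transcript of 435 bases. Its last 27 bases are shown because they are mostly A, with runs of A in capitals:
HIST1H4C: gaacttcAAAAAAcAAAAAcAAAAAAA

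These bases held 20 A. The most A-rich 20 bases of the HIST1H4C transcript held 18 A, a content that 3.82% of all coding transcripts reached, and they lay at its 3′ end. Whether those bases are genomic was not checked. By class, the most A-rich 20 bases of replication-dependent members held a median of 12 A in H1 genes, 10 in H2A, 13 in H2B, 9 in H3 and 9 in H4, beside a median of 13 over all coding transcripts. The sets are not alike, as 34 of 70 replication-dependent members are annotated by coding sequence alone and a longer transcript offers more windows. The annotated end of HIST1H2BG is 20 A, and HIST1H2BG was at 2.23 and 1.73 CPM. Whether A-rich ends bear on the counts was not tested.

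The level of a gene is given here as CPM, in which each captured message counts as 1 tag and no length is divided out. Of 70 replication-dependent members, 9 reached 10 CPM in at least 1 library, 34 reached 1 CPM but not 10, 10 were counted below 1 CPM and 17 had no UMI in either library, which allows up to 3 counts, or 0.0683 CPM with the fusion and 0.0702 in the control. All 6 variants were above 10 CPM. By class, 4 of 6 H1 genes, 2 of 17 H2A, 2 of 18 H2B, 0 of 15 H3 and 1 of 14 H4 genes reached 10 CPM. HIST1H1A, HIST1H2AA, HIST1H2BA, HIST3H3, HIST3H2A and HIST3H2BB were among those with no UMI, and the testis linker histone HIST1H1T had 1 and 2 UMIs.

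**Figure D1:**
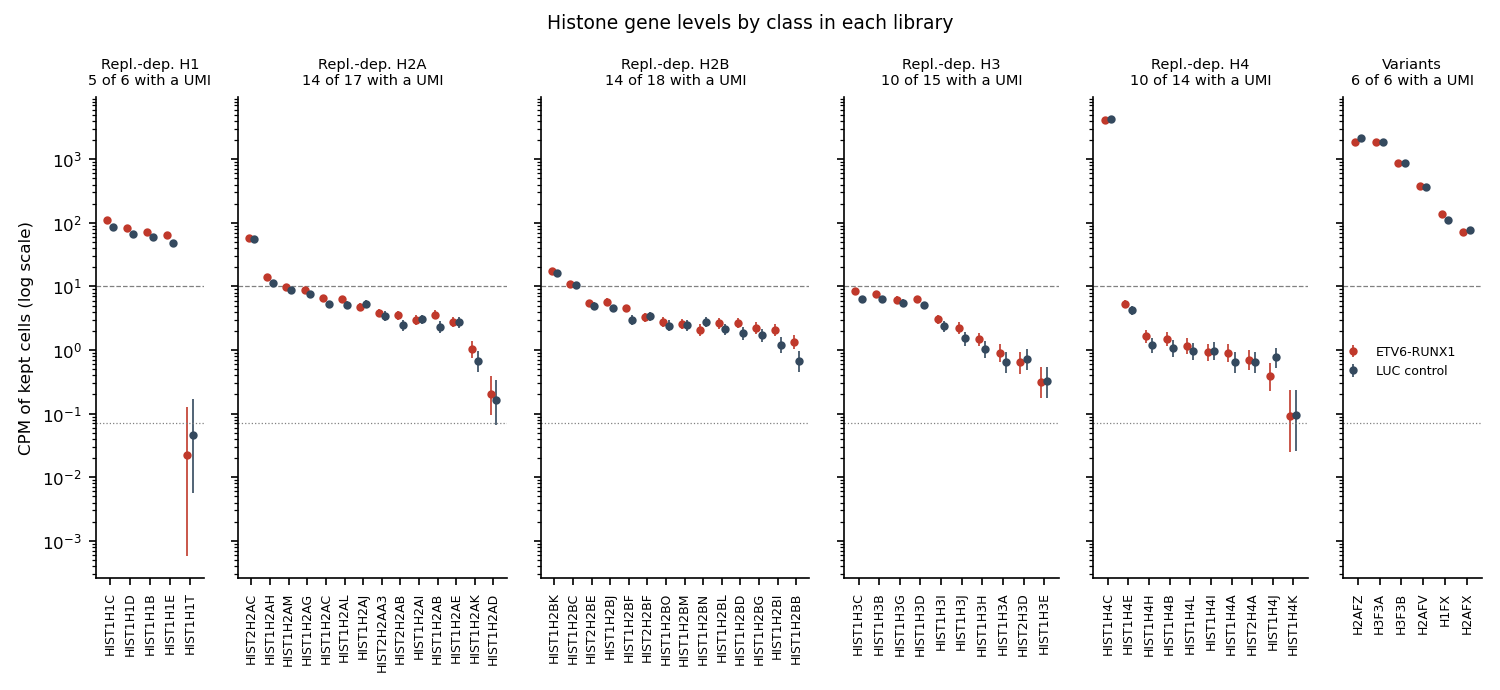
CPM of each histone gene with a UMI (y axis, log scale), by class, in the ETV6-RUNX1 library (red) and the LUC control (blue-grey); bars are exact 95% Poisson intervals, the dashed line is 10 CPM and the dotted line the level of 3 counts. HIST1H4C stands at 4152 and 4253 CPM, above every other member, while the next H4 gene, HIST1H4E, is at 5.33 and 4.21.

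HIST1H4C, 1 of 14 H4 genes in the clusters, was the most abundant member. It had 182451 UMIs with the fusion and 181846 in the control, or 4152 and 4253 CPM. That was 87.9% and 90.0% of all replication-dependent UMIs, and 0.415% and 0.425% of all UMIs of each library. The 13 other H4 genes together held 556 and 453 UMIs (12.7 and 10.6 CPM). HIST1H4C was counted above each of the 6 variants.

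The linker histones came next. HIST1H1C (H1.2) was at 108.9 and 87.1 CPM, HIST1H1D (H1.3) at 83.4 and 66.8, HIST1H1B (H1.5) at 71.3 and 59.5, and HIST1H1E (H1.4) at 63.5 and 48.8. The class sum of H1 was 327 and 262 CPM, or 6.93% and 5.55% of replication-dependent UMIs. Among core histone genes other than HIST1H4C, HIST2H2AC was highest at 58.5 and 54.9 CPM, below the 4 linker genes with the fusion but above HIST1H1E in the control. HIST1H2BK was at 17.5 and 16.2 CPM, HIST1H2AH at 14.2 and 11.5 and HIST1H2BC at 10.9 and 10.4. The H2A sum was 127 and 113 CPM, the H2B sum 65.8 and 57.7, and the H3 sum 37.1 and 29.9, in which HIST1H3C was highest at 8.35 and 6.31 CPM. The H4 sum was 4165 and 4263 CPM, so the captured messages of the 4 core classes were far from equal in number.

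Variants summed to 5164 and 5399 CPM against 4722 and 4726 for all replication-dependent genes. H2AFZ (H2A.Z, placed at promoters) was at 1853 and 2145 CPM. H3F3A and H3F3B encode the same H3.3 protein; H3F3A was at 1848 and 1838 CPM and H3F3B at 875 and 862. H2AFV, the second H2A.Z gene, was at 376 and 368 CPM. H1FX, a linker histone outside the clusters, was at 138.6 and 108.9 CPM, and H2AFX, whose protein is phosphorylated at DNA breaks, at 72.7 and 77.6. In both libraries H2AFZ and H3F3A were the highest variants; in the control H2AFZ was above H3F3A, and with the fusion their exact intervals overlapped.

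Counts of near-identical genes are uncertain. In 13 replication-dependent members at least 50% of the 50-base runs of their transcripts stood in another member, and in 5 of them all did (HIST2H3A and HIST2H3C, HIST2H2AA3 and HIST2H2AA4, and HIST1H4K within HIST1H4J). For HIST2H2AA3 and HIST2H2AA4 this was fixed by the match, because both were matched to the same transcript. None of the 9 members at 10 CPM or more was among the 13.

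Of the 9 replication-dependent genes at 10 CPM or more, 8 were higher in cells called S or G2/M than in cells called G1, and 1, HIST1H2BK, was lower. Cells were called G1, S or G2/M from S and G2/M gene scores that held no member, on 2043 and 1786 cells thinned to 8700 UMIs each. CENPA, a histone gene outside the rule, was among the G2/M genes scored. G1 was called in 244 cells (11.9%) with the fusion and 156 (8.73%) in the control, S in 819 and 796, and G2/M in 980 and 834. Of the thinned cells, 26.8% and 25.6% had a deciding score within 0.05 of the threshold, so the phases are ranges of a score. Depth moved with phase: cells called G1 had medians of 15839.5 and 16922.5 UMIs, and cells called G2/M 22115 and 25385.5.

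HIST1H4C was at 434 CPM in G1, 4042 in S and 4946 in G2/M with the fusion, and at 459, 4155 and 4865 in the control. Its S over G1 difference was a log2 fold of 3.22 (95% counting interval 3.15 to 3.29) and 3.18 (3.1 to 3.26). Among 5954 genes at 10 CPM or more, with a median S over G1 log2 fold of 0.08 and 0.09, 11 and 7 genes lay above it. Summed over all replication-dependent genes the log2 fold was 3.07 and 3.02 for S over G1 and 3.30 and 3.20 for G2/M over G1. Without HIST1H4C it was 2.39 and 2.17, and 2.19 and 1.92.

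The H1 genes were high in S and as a sum somewhat lower in G2/M, with a G2/M over S log2 fold of -0.22 (-0.26 to -0.17) and -0.25 (-0.31 to -0.20). HIST1H1B was at 4.2 CPM in G1, 80.1 in S and 76.4 in G2/M with the fusion, and at 5.3, 65.03 and 62.7 in the control. Its S over G1 log2 fold of 4.27 (3.58 to 5.05) was the highest of all 5954 genes with the fusion, and 3.62 (2.89 to 4.46) in the control had 2 genes above it. HIST1H1D was at 12.0, 106.0 and 78.6 CPM, and at 16.3, 87.5 and 56.7. Its G2/M over S log2 fold was -0.43 (-0.53 to -0.33) and -0.63 (-0.74 to -0.52), where that of HIST1H4C was 0.29 (0.28 to 0.31) and 0.23 (0.21 to 0.24). HIST1H1C had S over G1 folds of 2.37 and 2.26, and HIST1H1E of 2.93 and 2.79.

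The H2A genes at 10 CPM or more were also higher in S than in G1, and differed between S and G2/M. HIST2H2AC was at 9.3, 59.8 and 66.6 CPM in G1, S and G2/M with the fusion and at 10.3, 55.3 and 60.5 in the control, with a G2/M over S log2 fold of 0.16 (0.04 to 0.27) and 0.13 (0.01 to 0.25). HIST1H2AH was at 1.0, 18.0 and 14.0 CPM, and at 1.1, 14.1 and 11.0, with a fold of -0.37 (-0.60 to -0.13) and -0.36 (-0.62 to -0.10). Summed H3 genes had S over G1 log2 folds of 3.41 (2.72 to 4.2) and 2.79 (2.05 to 3.63). Of the 9 replication-dependent genes at 10 CPM or more, 8 had an S over G1 interval above 0 in each library, beside 24.7% and 23.2% of 5954 genes, and the median fold of the 9 was 2.93 and 2.43. Of the 34 at 1 to 10 CPM, 31 had an S over G1 fold above 0 with the fusion and 26 in the control, and the other 3 and 8 had no UMI in G1 cells. The interval lay above 0 in 25 and 17 of the 34 and held 0 in the rest that had a value. Of all genes at that level with a UMI in both phases, 49.1% and 50.1% had a fold above 0, and 5.78% and 4.43% an interval above 0.

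HIST1H2BK, an H2B gene, was the exception: its interval lay below 0 in each library, as in 10.5% and 8.01% of genes. It was at 29.6 CPM in G1, 20.1 in S and 12.7 in G2/M with the fusion, and at 30.8, 17.9 and 12.3 in the control. Its S over G1 log2 fold was -0.55 (-0.86 to -0.24) and -0.78 (-1.12 to -0.42), and its G2/M over G1 fold -1.22 (-1.53 to -0.90) and -1.32 (-1.68 to -0.96). Of 5954 genes, 0.118% and 0.0672% had a lower G2/M over G1 fold. HIST1H2BC, the other H2B gene at 10 CPM or more, had S over G1 folds of 1.85 (1.1 to 2.72) and 1.52 (0.72 to 2.45). HIST1H2BD, at 2.64 and 1.82 CPM, had the lowest S over G1 folds among the 1 to 10 CPM genes with the fusion, 0.30 (-0.71 to 1.44), and its interval in the control (-0.90 to 2.52) also held 0. The H2B class sum had the smallest S over G1 fold of the 5 classes, 0.93 (0.70 to 1.17) and 0.72 (0.45 to 1.00). Most of that sum in G1 was HIST1H2BK, 29.6 of 41.8 CPM with the fusion and 30.8 of 43.5 in the control. The fold of the sum without HIST1H2BK was not computed, so the class value does not describe the other H2B genes.

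**Figure D2:**
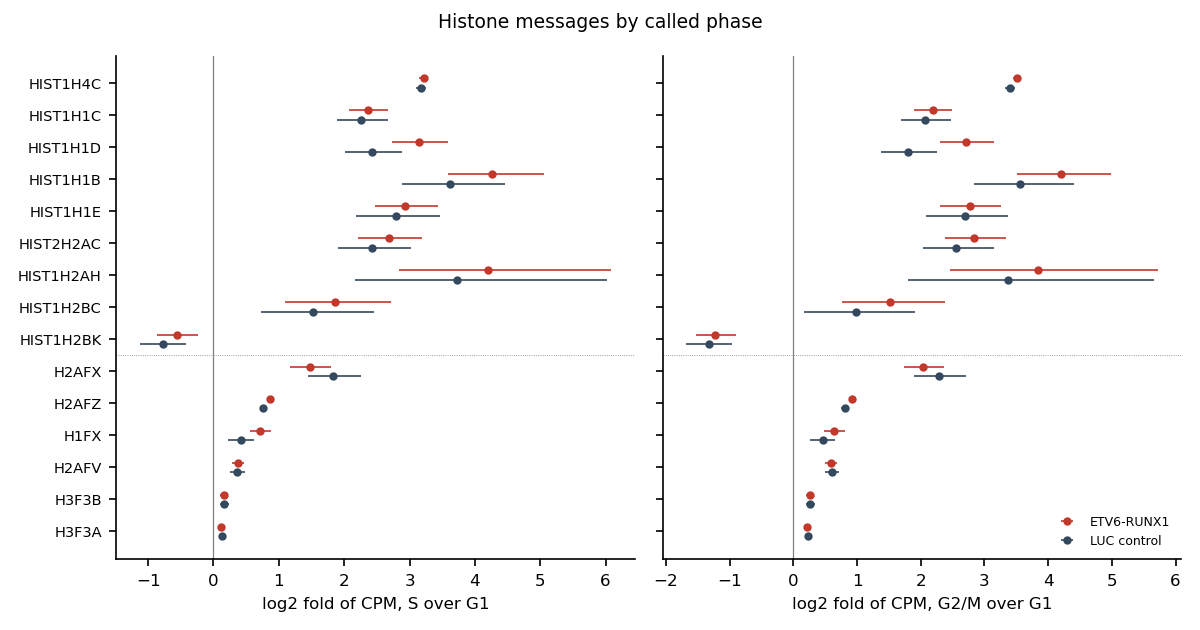
Log2 fold of CPM in cells called S (left) or G2/M (right) over cells called G1 for the 9 replication-dependent genes at 10 CPM or more (above the dotted line) and the 6 variants, in each library; bars are 95% counting intervals. HIST1H2BK is the one gene left of 0, and H3F3A and H3F3B lie within 0.27 of it.

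Variants as a sum varied less with phase, with S over G1 log2 folds of 0.41 and 0.40, and not alike. H2AFX was at 22.0, 61.3 and 90.7 CPM in G1, S and G2/M with the fusion and at 19.1, 68.1 and 93.4 in the control, a G2/M over G1 log2 fold of 2.04 (1.74 to 2.36) and 2.29 (1.90 to 2.71). H2AFZ was at 1044, 1903 and 1982 CPM, and at 1284, 2168 and 2245. H1FX was at 89.5, 146.7 and 139.9 CPM, and at 81.7, 109.2 and 112.5. H3F3A was nearly level, at 1652, 1795 and 1914 CPM, and at 1620, 1779 and 1909, with a G2/M over G1 fold of 0.21 (0.18 to 0.25) and 0.24 (0.19 to 0.28). H3F3B (0.26 and 0.27) and H2AFV (0.60 and 0.61) lay between.

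Cells were also placed in 8 sectors of 45 degrees of the angle between the scaled S and G2/M scores. Sectors 8 and 1 hold cells low in both scores, 3 and 4 those high in S, and 5 and 6 those high in G2/M. Sectors 4 and 5 were raised in both scores. In sector 5 the mean S and G2/M scores were 0.132 and 0.309 with the fusion, and 0.121 and 0.293 in the control. In sector 6 they were -0.006 and 0.377, and -0.007 and 0.375. HIST1H4C was lowest in sector 1 (2000 and 1990 CPM) and highest in sector 5 (7633 and 7534), with 7453 and 7452 in sector 4 and 3871 and 4084 in sector 6. The H1 sum was highest in sector 4 (655 and 510 CPM) and was already 191 and 175 in sector 6. H2AFX was highest in sector 5 with the fusion (114 CPM, with 108 in sector 6) and in sector 6 in the control (116), where the replication-dependent sums were already lower. HIST1H2BK ran against them, lowest in sector 6 (8.7 and 8.2 CPM) and highest in sectors 8 and 1 (27.2 and 26.5). With the fusion 8 of the 9 replication-dependent genes at 10 CPM or more had their highest level in sector 4 or 5, and in the control 7 did, with HIST1H2BC in sector 3. Of 5954 genes, 37.5% and 37.7% had theirs there.

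**Figure D3:**
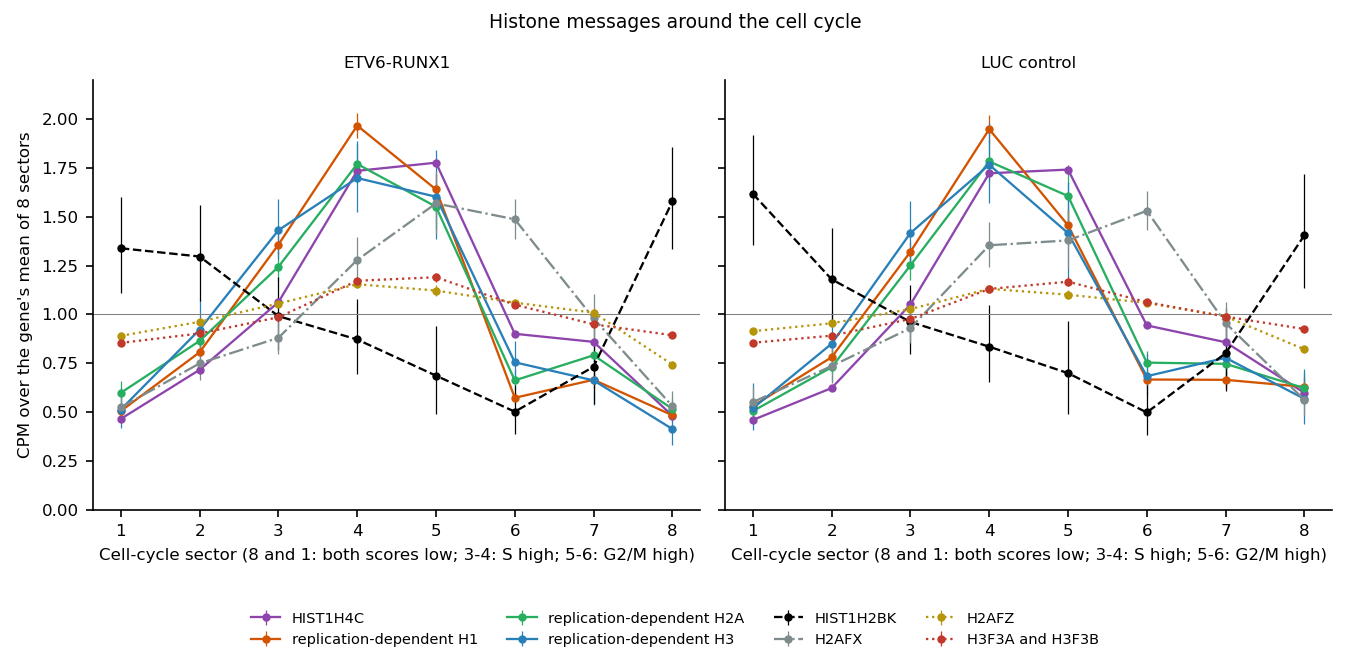
CPM in each of 8 cell-cycle sectors divided by the mean over the 8 sectors, for HIST1H4C, class sums, HIST1H2BK and variants, in each library; bars are 95% counting intervals. HIST1H4C and the H1, H2A and H3 sums are highest in sectors 4 and 5, H2AFX in sector 5 or 6, and HIST1H2BK is lowest in sector 6.

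Single cells differed in HIST1H4C as sharply as the phases did. After thinning, its median was 34 UMIs per cell in each library, and the variance over the mean was 28.5 and 30.6, where 1 is counting noise alone. (The intervals given above count UMIs as independent, so they are too narrow.) In bins chosen after the values were seen, 803 cells with the fusion (39.3%) had fewer than 10 UMIs, 161 (7.88%) had 10 to 29, 531 (26.0%) had 30 to 59 and 548 (26.8%) had 60 or more. In the control the bins held 709 (39.7%), 140 (7.84%), 428 (24.0%) and 509 (28.5%) cells. Few cells lay between the low and the high group. Of the cells called G1, 238 of 244 and 151 of 156 had fewer than 10, while a low group also stood within S (289 of 819 and 286 of 796 cells) and within G2/M (276 of 980 and 272 of 834).

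**Figure D4:**
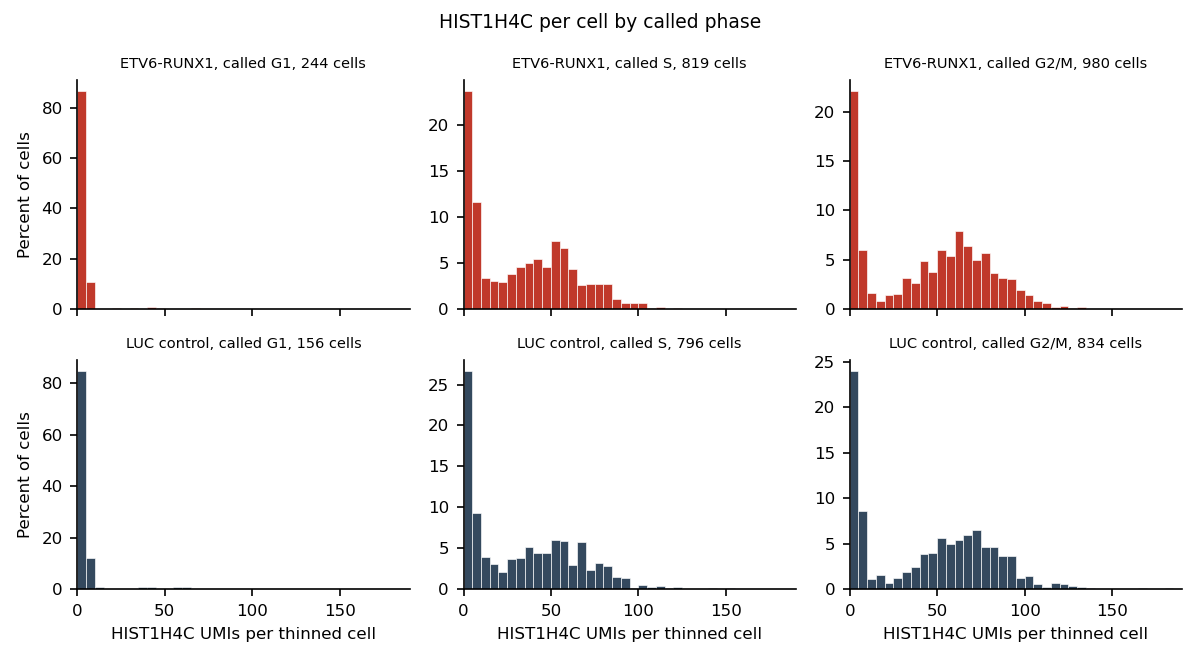
Percent of cells (y axis, scales differ) by HIST1H4C UMIs per cell thinned to 8700 UMIs (x axis, bins of 5), for cells called G1, S and G2/M in each library. Cells called G1 lie near 0, and cells called S or G2/M form a low and a high group with few cells between.

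A UMI of HIST1H4C was found in 86.5% of G1 cells with the fusion and 88.5% in the control after thinning (96.3% and 96.8% before), against 97.6% and 97.0% of G2/M cells. No cell type that lacks HIST1H4C was in these cultures and free RNA was not estimated, so its part in the low G1 counts was not tested. The other replication-dependent genes together were sparse, with a mean of 5.03 and 4.19 UMIs per thinned cell. A cell had UMIs of a median of 4 different replication-dependent genes in each library, 2 in G1 and 5 (fusion) or 4 (control) in S. Across cells, HIST1H4C went with the sum of the other replication-dependent genes at a Pearson r of 0.70 (n = 2043) and 0.69 (n = 1786) (Spearman rho 0.75 and 0.73). Cells of a library share its depth and preparation, so this is a description.

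Between the libraries the replication-dependent sum, most of it HIST1H4C, differed by less than counting error when scaled to plain library totals. The sum was 207476 UMIs (4722 CPM) with the fusion and 202111 (4726 CPM) in the control, a log2 ratio of 0.00 (-0.01 to 0.01). With 3 other scalings of the totals the sum gave 0.038 to 0.044, beyond that interval, and as UMIs per cell -0.24. HIST1H4C gave -0.03 (-0.04 to -0.03), 0.00 to 0.01 with the 3 other scalings and -0.27 as UMIs per cell. By sector it gave -0.32 to 0.19, above 0 in 5 of 8. G1 cells were a larger share with the fusion, and with the phases given equal weight the sum gave 0.02. Without HIST1H4C the other 69 genes summed to 570 and 474 CPM, and the log2 ratio was 0.27 (0.24 to 0.29). Among cells called S that ratio was 0.27 (0.23 to 0.31), in G2/M 0.33 (0.29 to 0.36) and in G1 0.06 (-0.14 to 0.26). It lay above 0 in 8 of 8 sectors, from 0.00 to 0.44, with an interval above 0 in 7.

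No member at 10 CPM or more reached a 1.5-fold difference in either direction, where 0.185% of 5954 measured genes were higher by that much and 0.655% lower. At 1.2-fold, a size chosen after the values were seen, 4 of 9 replication-dependent genes and 1 of 6 variants were higher and none lower, where 2.5% of measured genes were higher and 5.73% lower. A log2 ratio above 0 was seen in 8 of the 9 replication-dependent genes and in 36.2% of measured genes. Their median was 0.26 beside -0.04 over all measured genes. Down to 1 CPM, 38 of 43 replication-dependent genes had a ratio above 0, beside 40.8% of 10768 genes, with medians of 0.31 and -0.04. At that floor 4 of the 43 were higher by 1.5-fold or more, beside 1.29% of genes: HIST1H2BB (59 and 29 UMIs), HIST1H2BI (92 and 52), HIST1H2AB (158 and 99) and HIST1H2AK (45 and 29). None of the 43 was lower by as much, beside 2.15% of genes. At 1.2-fold 26 of the 43 were higher, beside 7.33% of genes, and 1 was lower (HIST1H2BN, 91 and 118 UMIs), beside 10.6%. Over the 53 replication-dependent genes with a UMI in both libraries, 42 had a ratio above 0, beside 41.3% of 15842 genes.

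The 4 linker genes were higher in the fusion library, without reaching 1.5-fold. HIST1H1E gave 0.38 (0.30 to 0.46), HIST1H1C 0.32 (0.26 to 0.38), HIST1H1D 0.32 (0.25 to 0.39) and HIST1H1B 0.26 (0.18 to 0.34). H1FX, the linker histone outside the clusters, gave 0.35 (0.29 to 0.40). By class the ratio was 0.32 (0.28 to 0.35) for H1, 0.31 (0.21 to 0.42) for H3, 0.19 (0.11 to 0.27) for H2B and 0.16 (0.10 to 0.22) for H2A. Within phases the H1 sum gave 0.34 (0.28 to 0.39) in S, 0.37 (0.32 to 0.42) in G2/M and 0.01 (-0.31 to 0.33) in G1. HIST1H2AH was higher (0.31, 0.13 to 0.48) and HIST2H2AC less so (0.09, 0.01 to 0.17), and the intervals of HIST1H2BK and HIST1H2BC held 0.

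H2AFZ and H2AFX were the variants at a lower level in the fusion library. For H2AFZ the log2 ratio was -0.21 (-0.22 to -0.20), and it lay below 0 in 8 of 8 sectors, from -0.34 to -0.16. H2AFX gave -0.09 (-0.16 to -0.02), but its ratio was above 0 in 1 of 8 sectors and its interval held 0 in all 8. By phase H2AFX gave 0.20 (-0.30 to 0.72) in G1, -0.15 (-0.28 to -0.03) in S and -0.04 (-0.13 to 0.05) in G2/M. H3F3A (0.01), H3F3B (0.02) and H2AFV (0.03) lay near 0. The variant sum gave -0.06 (-0.07 to -0.06), below 0 in 8 of 8 sectors. H2AFZ held 81441 of its 226908 UMIs with the fusion and 91746 of 230891 in the control. Of the 6 variants, 4 had a ratio above 0 and their median was 0.02, so the sum does not describe each variant. Cells with the fusion held fewer UMIs, so counted as UMIs per cell every log2 ratio is 0.24 lower: the 4 linker genes, H1FX and HIST1H2AH stayed above 0 (0.02 to 0.14), while the H2A and H2B sums, HIST2H2AC, HIST1H2BK, HIST1H2BC and the 5 variants other than H1FX were below it.

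**Figure D5:**
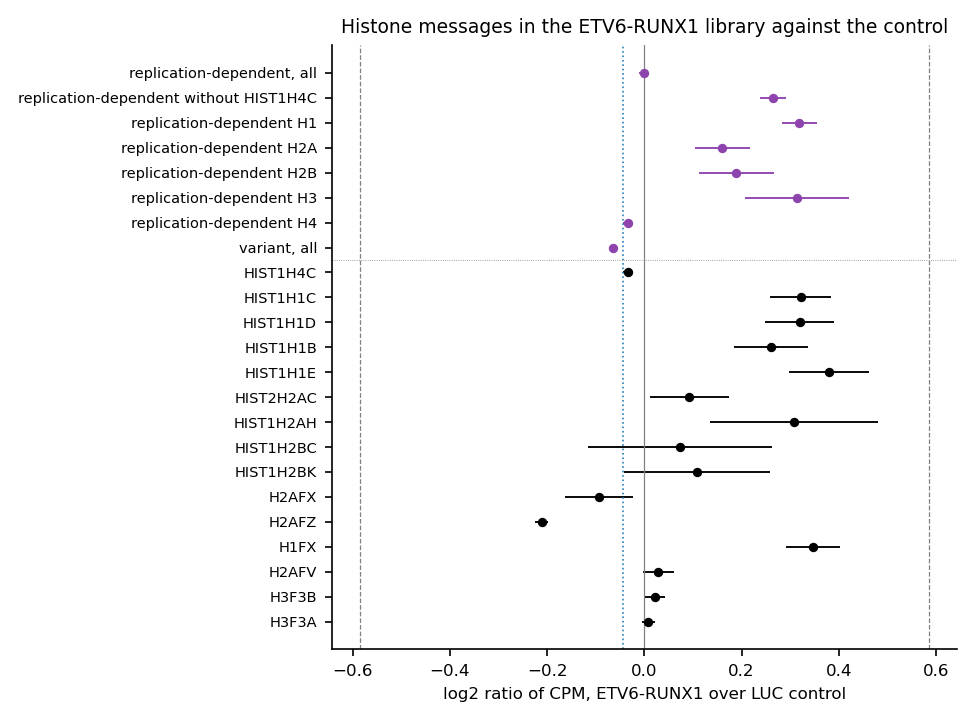
Log2 ratio of CPM, ETV6-RUNX1 over LUC control, for class sums (purple) and single genes (black), with 95% counting intervals; dashed lines mark 1.5-fold and the blue dotted line the median of 5954 measured genes. The H1 genes and H1FX lie between 0.26 and 0.38, HIST1H4C at -0.03 and H2AFZ at -0.21.

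Promoters of the linker genes are shown because those genes were higher together in S and in the fusion library. Of 76 members, 71 had an entry in the RefSeq promoter table (build GRCh38.p14), and HIST1H4A, HIST1H4C, HIST1H2AH, HIST1H3I and HIST1H3J had none. The 250 bases before the start were searched on both strands for AAACACA (a linker histone promoter element), the box CCAAT that NF-Y binds, the TATA box as TATAAA and the octamer ATTTGCAT, and matches are in capitals. The 4 promoters lie on chromosome 6, that of HIST1H1C at chr6:26056471-26056720 (minus strand), HIST1H1D at chr6:26234988-26235237 (minus), HIST1H1E at chr6:26156079-26156328 (plus) and HIST1H1B at chr6:27867589-27867838 (minus):
HIST1H1C: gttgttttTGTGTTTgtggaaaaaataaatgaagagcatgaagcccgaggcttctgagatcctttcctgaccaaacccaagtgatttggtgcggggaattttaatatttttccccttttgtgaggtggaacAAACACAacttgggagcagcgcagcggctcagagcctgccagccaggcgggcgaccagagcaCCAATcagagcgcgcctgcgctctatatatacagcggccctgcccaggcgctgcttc
HIST1H1D: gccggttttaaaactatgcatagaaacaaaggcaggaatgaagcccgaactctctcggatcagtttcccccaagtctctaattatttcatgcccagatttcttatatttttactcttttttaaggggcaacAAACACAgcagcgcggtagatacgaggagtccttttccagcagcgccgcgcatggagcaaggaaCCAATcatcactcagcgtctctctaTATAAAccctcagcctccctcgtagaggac
HIST1H1E: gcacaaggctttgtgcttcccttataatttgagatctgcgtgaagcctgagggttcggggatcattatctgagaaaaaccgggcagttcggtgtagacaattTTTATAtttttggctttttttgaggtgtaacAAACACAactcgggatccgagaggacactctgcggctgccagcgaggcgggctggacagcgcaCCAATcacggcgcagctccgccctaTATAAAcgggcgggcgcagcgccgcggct
HIST1H1B: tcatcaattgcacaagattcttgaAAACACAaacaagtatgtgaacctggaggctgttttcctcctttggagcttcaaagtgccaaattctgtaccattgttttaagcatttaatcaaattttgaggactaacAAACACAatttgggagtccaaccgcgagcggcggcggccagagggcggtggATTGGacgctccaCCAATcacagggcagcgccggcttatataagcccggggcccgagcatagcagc

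AAACACA was in 6 of 6 promoters of clustered H1 genes, in none of the other 65 member promoters (H1FX included) and in 4.95% of 27305 promoters of all genes. In these 4 it had a match 117 to 119 bases before the start, with CCAAT 53 to 57 bases before it. CCAAT stood in all promoters of the H1, H2A, H2B and H3 genes and in 3 of 12 H4 promoters, beside 33.0% of all promoters. ATTTGCAT stood in 11 of 16 H2A and 14 of 18 H2B promoters, beside 1.66% of all. TATAAA was in 43 of 65 replication-dependent promoters, beside 11.1%. These are counts of genes, not of separate sequences. In 12 pairs of members the genes lie on opposite strands with starts 194 to 248 bases apart. All but HIST1H2BF with HIST1H3D pair an H2A with an H2B gene. Their searched bases overlap, so 1 match can count for both genes. HIST1H3D and HIST1H2AD have the same promoter entry. HIST1H1A, with no UMI, and HIST1H1T, with 1 and 2, are among the 6 promoters with AAACACA.

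HIST1H2BK and its neighbour HIST1H2BJ are set side by side because their phases differed while their promoters are alike. HIST1H2BJ, at 5.78 and 4.51 CPM, had S over G1 log2 folds of 2.22 (1.05 to 3.69) and 3.25 (1.36 to 6.31), from 6 and 2 UMIs in G1. The HIST1H2BK promoter is chr6:27146859-27147108 and that of HIST1H2BJ chr6:27132796-27133045, both on the minus strand:
HIST1H2BK: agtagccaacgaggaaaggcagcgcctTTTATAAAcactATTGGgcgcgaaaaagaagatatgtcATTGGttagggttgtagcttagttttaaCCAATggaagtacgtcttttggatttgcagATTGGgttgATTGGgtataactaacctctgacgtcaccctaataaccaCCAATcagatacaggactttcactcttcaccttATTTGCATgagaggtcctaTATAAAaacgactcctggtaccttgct
HIST1H2BJ: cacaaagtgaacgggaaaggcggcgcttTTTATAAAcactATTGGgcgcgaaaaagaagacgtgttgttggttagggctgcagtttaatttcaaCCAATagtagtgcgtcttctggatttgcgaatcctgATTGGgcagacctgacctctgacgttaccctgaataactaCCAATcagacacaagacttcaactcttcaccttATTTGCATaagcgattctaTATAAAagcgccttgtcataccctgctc

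Aligned over 254 columns, 203 bases (79.9%) were identical, and both held the octamer 46 and 47 bases before the start and TATAAA 27 and 28 bases before it. The 4 linker promoters were 55.5% to 67.1% identical to each other.

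No measured gene on the lists of those that make and handle histone messages and proteins differed by 1.5-fold between the libraries. Few of all 5954 measured genes did, 0.185% higher and 0.655% lower, so this does not set the lists apart. Of 17 measured genes for histone message processing, none differed by 1.5-fold, 5 had a ratio above 0 and the median was -0.08. Over all measured genes 36.2% had a ratio above 0 and the median was -0.04. CSTF2, a cleavage factor subunit, gave -0.33 (10.5 and 13.2 CPM), SYMPK, the scaffold of histone 3′ end cleavage, 0.15, and ERI1, the exonuclease that trims the stem-loop end, -0.13 (-0.33 to 0.07). SLBP, named here after its value was seen, was at 126 and 134 CPM (-0.08). Of 4 measured regulators of histone gene transcription none differed by 1.5-fold. E2F1 gave 0.30 (68.3 and 55.4 CPM), POU2F1, which binds the octamer, 0.18 and CDK2 -0.17. Of 24 measured chaperones and exchange factors none differed by 1.5-fold, with a median of -0.02. CABIN1 gave -0.23, and SRCAP and VPS72, which place H2A.Z, gave -0.19 and -0.14. Outside the rule, macroH2A (H2AFY) was at 262 and 276 CPM, and CENPA, the centromeric H3, at 36.6 and 39.5. CENPA had 3.4 CPM in G1 and 61.3 in G2/M with the fusion, and 2.8 and 65.7 in the control. It is one of the G2/M genes that called the phases, so this rise was built into the calls and is no separate observation.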

How the data were processed

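Single-cell messenger RNA was counted in 2 libraries, 1 per construct. Per the labels' protocols, poly-A transcripts were barcoded on the 10X system with a UMI. The deposited tables give raw counts of UMIs, not normalized, which the authors made with Cell Ranger 3.0.2 on hg19, per the submitters' processing notes. How reads of near-identical or overlapping genes were shared out was not stated in the sources used here.

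Cells with at least 1000 genes and at most 10% of UMIs from MT- genes were kept (2267 of 2503 and 1870 of 2203 barcodes). Doublets were left in (Scrublet called 14 and 16). Counts were summed per library and scaled to CPM; ratios have exact 95% intervals of a pair of Poisson counts, which cover counting error only and neither the spread between cells nor between cultures. No test was made with 1 library per group. Phases were called with scanpy 1.11.5 (40 S genes, 54 G2/M genes, none a member or a reference gene) after thinning to 8700 UMIs, which left out 224 and 84 cells. Genes that reached 10 CPM in either library were called measured. Named genes were the 6 variants, replication-dependent members at 10 CPM or more, members 1.5-fold apart, and up to 3 measured genes per pathway list by absolute log2 ratio. Alternatives were other scalings (edgeR 4.0.16), filters, floors, sizes, phase calls and thinned counts. Ratios and intervals were checked on simulated counts. Members and lists were chosen with earlier results of these data known.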

Additional observations from a re-analysis of the deposited data

Results flagged for a closer look

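HIST1H4C differed in direction between phases when scaled to plain totals. The log2 ratio of the ETV6-RUNX1 library over the control was -0.082 in cells called G1, with a counting interval of -0.186 to 0.022. It was -0.040 (-0.055 to -0.025) in cells called S and 0.024 (0.012 to 0.036) in cells called G2/M. TMM and median-of-ratios scaling each shift every ratio by 0.039, and totals without ribosomal protein and MT- genes by 0.046. Those shifts are about the size of the S value, so its direction depends on the scaling. Each value rests on 1 library per group, and no test of the phases against each other was made.

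The barcodes left out by the cell filter (236 with the fusion and 333 in the control, with under 1000 genes or over 10% of UMIs from MT- genes) also held histone messages. HIST1H4C was at 1309 CPM in them with the fusion and 966 in the control, against 4152 and 4253 CPM in kept cells. The replication-dependent genes other than HIST1H4C were at 418 and 349 CPM there, against 570 and 474 in kept cells.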

How the results depend on the processing

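Direction and size held for most values, and no member at 10 CPM or more passed 1.5-fold in either direction under any scaling or cell filter tried. The replication-dependent log2 ratio became 0.0380 with TMM scaling, 0.0378 with median-of-ratios scaling, 0.0442 without ribosomal protein and MT- genes in the totals, 0.0239 with the phases and 0.0227 with the sectors given equal weight, -0.24 as UMIs per cell and 0.27 without HIST1H4C. The variant ratio became -0.0249, -0.0251 and -0.0187 with the 3 scalings and -0.30 as UMIs per cell. With the 3 scalings the H4 class turned to 0.0058, 0.0056 and 0.012, and HIST1H4C to 0.0050, 0.0048 and 0.011. As UMIs per cell the H2A class turned to -0.078, the H2B class to -0.049, HIST2H2AC to -0.15 and H3F3B to -0.22. Each scaling shifts every log2 ratio by the same amount (0.04, 0.04, 0.05 and -0.24). At a floor of 1 CPM, 4 members were higher by 1.5-fold, beside 1.29% of genes. At the floor of 10 CPM, 5 members were higher by 1.2-fold, beside 2.5% of genes. The UMIs per cell, equal sectors, 1.2-fold size and omission of HIST1H4C were chosen after the data were seen.

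Replication-dependent S over G1 and G2/M over G1 log2 folds with the fusion were 2.82 and 3.17 with phases called on unthinned cells, 3.59 and 3.85 for cells away from the score threshold, and 2.39 and 2.19 without HIST1H4C; G2/M over G1 was 3.51 on thinned counts. In the control they were 3.41 and 3.77, 3.67 and 3.85, and 2.17 and 1.92, with 3.41 on thinned counts. Variant folds away from the threshold were 0.52 and 0.62 with the fusion and 0.48 and 0.59 in the control, with G2/M over G1 of 0.55 and 0.53 on thinned counts. The cause of these shifts was not tested. At 10 CPM a value rests on 440 and 428 UMIs, and at 1 CPM on 44 and 43, so single genes below 10 CPM carry wide intervals. Of the other values of single genes, classes and lists, 251 stayed within their interval under an alternative and 39 moved beyond it. No paired analysis was possible because each group is 1 library.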
